A study of Mus musculus with 6 samples.

Results

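The genes described here encode the enzymes by which platelets release arachidonic acid and turn it into thromboxane and lipoxygenase products. They were picked by symbol for their place in this pathway, with earlier results of these data known, and number 9 of the 14975 genes in the deposited expression table: Pla2g4a, Ptgs1, Ptgs2, Tbxas1, Ptges3, Alox12, Alox5ap, Ltc4s and Mgst3. RNA-seq was performed on blood platelets of 3 control and 3 pre-AML libraries, all on the C57BL/6 background, named here control 1 to 3 and pre-AML 1 to 3. The labels give the genotypes as WT and AML without a time. The study describes the control platelets as those of irradiated mice transplanted with normal bone marrow, and the pre-AML platelets as those of irradiated mice 1 week after transplantation of cells transformed by retroviral MLL-AF9, a fusion oncogene of acute myeloid leukemia. The leukemic cells came from primary recipients, and the hosts were adult females. Their irradiation is described as sub-lethal, a dose that leaves blood-forming cells of the host, and host and donor platelets were not separated. Platelets were enriched by depleting cells with the leukocyte marker CD45 or the erythroid marker Ter119, and cDNA was amplified with SMART-Seq2. The labels mention 2 replicates per group and pools of 3 to 4 mice for a sample, whereas the study states 3 independent mice, so the p-values measure the spread between these libraries.

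Arachidonic acid is held in membrane phospholipids and is set free by cytosolic phospholipase A2 when platelets are activated. Cyclooxygenase turns it into prostaglandin H, which thromboxane synthase converts to thromboxane A, a short-lived agonist that recruits further platelets and is the target of low-dose aspirin therapy through cyclooxygenase. A second route through the platelet-type lipoxygenase yields hydroxy fatty acids. Leukotrienes are made mainly by leukocytes with the lipoxygenase encoded by Alox5, and the platelet is known to finish cysteinyl leukotrienes from precursors that neighbouring cells hand over.

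Values are FPKM, fragments per kilobase of gene, scaled for library size, as deposited. From these values and gene lengths, whole reads were recovered, and the 6 libraries held between 11936010 and 17778985 reads on the listed genes. Pre-AML 3 stood apart from the other libraries. Across the 4412 genes averaging 1 FPKM or more, Spearman correlations between libraries were 0.842 to 0.880 for the 5 pairs with pre-AML 3 and 0.962 to 0.973 for the other 10 pairs. The library size by which its FPKM values had been divided was 1.31 times its recovered reads, against 0.983 to 1.01 times in the other 5, so the same share of reads appears as a lower FPKM in pre-AML 3. All 12 platelet marker genes of the list used here were above 0 in every library, and none of them was higher in pre-AML 3 than in all controls. Of 18 monocyte and macrophage markers, 17 were above all controls in pre-AML 3. Their summed level without Lyz2, which was already at 2384 to 2615 FPKM in control platelets, was 0.301 to 1.40 FPKM in the controls, 5.23 and 7.63 FPKM in pre-AML 1 and pre-AML 2, and 499 FPKM in pre-AML 3. Tyrobp alone made up 4.85 and 4.37 FPKM of the sums in pre-AML 1 and pre-AML 2. In these libraries 4 and 10 of the 18 markers were above all controls. In bulk RNA, fewer cells of a type and less RNA per cell cannot be told apart.

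Upstream sequences are shown for 4 members described below: the abundant and the nearly unread cyclooxygenase (Ptgs1 and Ptgs2), the platelet lipoxygenase (Alox12) and the gene that stood out in pre-AML 3 (Ltc4s). A link between these sequences and the levels was not tested. The sequences are from RefSeq on GRCm38.p6, read 5′ to 3′ on the strand of the gene, and cover the 250 bases before the annotated start, shortened to 166 bases for Ltc4s where GENCODE places an exon of the gene further upstream. Capitals mark GGAAGT, a core of the kind bound by ETS factors, searched on both strands.
Ptgs1, chr2:36230176-36230425, plus strand: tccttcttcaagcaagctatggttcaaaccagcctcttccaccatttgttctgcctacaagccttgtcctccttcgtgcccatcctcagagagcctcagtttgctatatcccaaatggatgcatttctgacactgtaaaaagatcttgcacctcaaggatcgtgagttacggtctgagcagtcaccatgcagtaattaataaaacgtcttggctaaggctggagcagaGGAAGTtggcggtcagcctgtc
Ptgs2, chr1:150099781-150100030, plus strand: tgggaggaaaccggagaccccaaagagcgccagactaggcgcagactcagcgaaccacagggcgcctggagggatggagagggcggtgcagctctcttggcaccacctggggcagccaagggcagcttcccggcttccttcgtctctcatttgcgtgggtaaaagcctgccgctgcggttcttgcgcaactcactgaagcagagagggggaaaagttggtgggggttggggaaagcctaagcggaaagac
Alox12, chr11:70255371-70255620, minus strand: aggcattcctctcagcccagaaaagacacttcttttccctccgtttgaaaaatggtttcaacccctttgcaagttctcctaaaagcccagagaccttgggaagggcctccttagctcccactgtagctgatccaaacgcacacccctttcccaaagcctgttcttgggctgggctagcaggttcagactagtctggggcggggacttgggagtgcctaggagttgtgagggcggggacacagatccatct
Ltc4s, chr11:50238617-50238782, minus strand: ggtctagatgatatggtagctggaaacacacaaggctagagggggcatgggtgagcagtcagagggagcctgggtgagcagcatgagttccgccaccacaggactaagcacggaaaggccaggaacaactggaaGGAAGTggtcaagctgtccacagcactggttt

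GGAAGT was found once in the Ptgs1 window, 22 to 17 bases before the start. It was found once in the Ltc4s window, 116 to 111 bases before the RefSeq start at 50238532. The Ltc4s window was searched over all 250 bases, of which 166 are printed. GGAAGT was in 19.7% of the 32851 RefSeq promoter windows of 250 bases, so a match is common. The GATA-type letters AGATAA or TGATAA (in 16.6% of all windows) and the letters TATAAA (in 12.4%) were in neither the Ptgs1, the Ptgs2, the Alox12 nor the Ltc4s window. Among the 9 windows of 8 members with an entry, which include 2 alternative starts of Pla2g4a, only the second Pla2g4a start, at 149922439 on chromosome 1, held the GATA-type letters, at 2 places. GGAAGT was also at 2 places there, and TATAAA was present at that start and, on both strands over shared bases, at the Tbxas1 start. RefSeq places this Tbxas1 start at 38918986, inside the GENCODE span of the gene, which begins at 38875404. Alox5ap was without an entry.

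The 9 genes ranged from abundant platelet transcripts to genes with hardly a read. Alox5ap and Alox12 were among the most abundant transcripts of the control platelets, ranked 48 and 51 of 14975 by mean FPKM, followed by Ptgs1 at rank 233 and Tbxas1 at rank 475. Pla2g4a and Mgst3 lay near 10 FPKM, Ptges3 near 1 FPKM, Ltc4s below that, and Ptgs2 was at 0 in 4 of 6 libraries. In every library, Alox12 and Alox5ap made up 89.1% to 90.6% of the summed FPKM of the 9 genes. The neighbours in this order did not overlap between their control ranges, except Pla2g4a and Mgst3, whose ranges overlapped. The gap between Alox5ap and Alox12 was narrow, with a lowest control of 1290 FPKM against a highest of 1289 FPKM. In the pre-AML libraries the order changed only in its lower part. Mgst3 stood above Pla2g4a in pre-AML 2 and pre-AML 3, and Ltc4s stood above Pla2g4a, Mgst3 and Ptges3 in pre-AML 3, as the plot of levels by library shows.

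**Figure D1:**
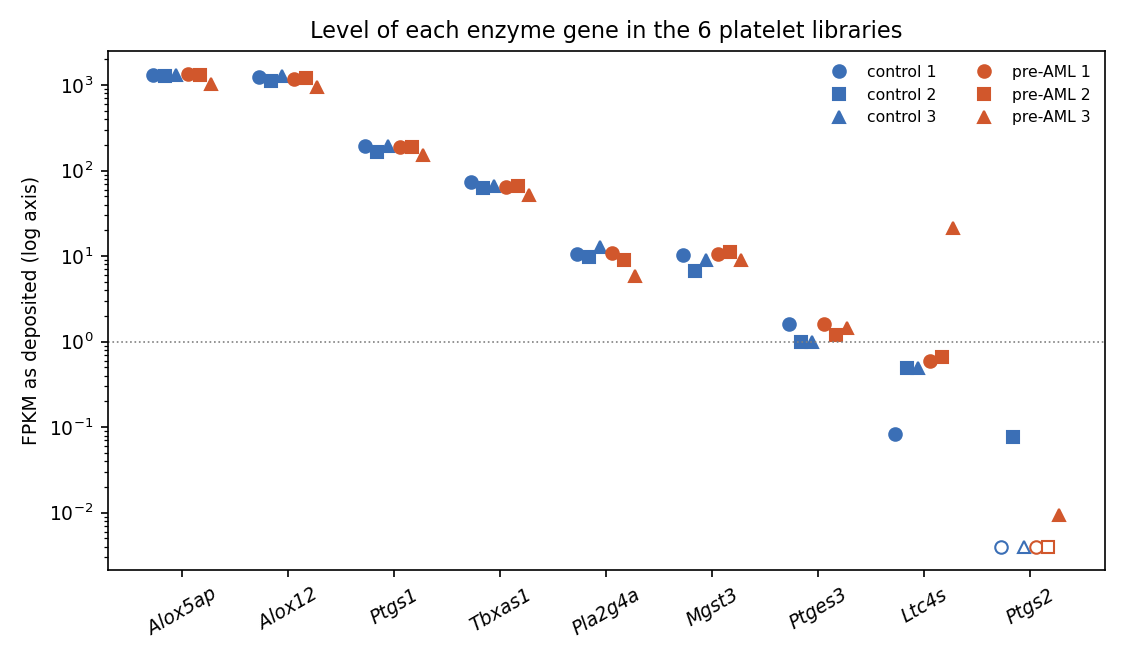
FPKM of the 9 enzyme genes (vertical log axis) in each of the 3 control (blue) and 3 pre-AML (orange) libraries, ordered by the control mean; open symbols at the bottom stand for libraries listed at 0 and the dotted line is 1 FPKM. Alox5ap and Alox12 sit near 1300 and 1200 FPKM in the controls, and Ltc4s lies under 1 FPKM in 5 libraries and at 21.3 FPKM in pre-AML 3.

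None of the enzyme genes passed the test between pre-AML and control platelets. Of the 8 members averaging 1 FPKM or more, 0 were higher and 0 were lower at an adjusted p under 0.05 (limma-trend with Benjamini-Hochberg adjustment over 4412 genes), where 0.0227% of all tested genes were higher and 0% lower. At an unadjusted p under 0.05 the members again counted 0 in both directions, against 2.56% of all genes higher and 6.53% lower, and limma-voom on recovered reads called 0 as well. Ltc4s and Pla2g4a came under that unadjusted threshold when pre-AML 1 was left out, as did Ltc4s when pre-AML 2 was left out or the replicate number was a block. The median log2 fold change of the 8 members was -0.08, and that of all tested genes was -0.055. Of the 8 members 5 had a log2 fold change below 0, as had 58.5% of all tested genes. Pre-AML 3 was the lowest of the 6 libraries for 5 of the 8, and this held for 43.8% of all tested genes. It was the highest for 1 of the 8, Ltc4s, as for 18.7% of all tested genes. Ltc4s averaged 1 FPKM or more only through that library.

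The release step is represented by Pla2g4a (Entrez gene 18783), which encodes cytosolic phospholipase A2 and occupies bases 149829618 to 149961290 of GRCm38 chromosome 1, minus strand. Its level was 10.5, 9.75 and 12.8 FPKM in control 1 to 3, and 10.9, 9.03 and 5.83 FPKM in pre-AML 1 to 3. Pre-AML 1 stood within the controls, pre-AML 2 just under them and pre-AML 3 lowest, so that the groups overlapped. The control mean was 11.0 ± 1.57 FPKM (SD, n = 3) and the pre-AML mean 8.60 ± 2.57 FPKM (SD, n = 3). The log2 fold change was -0.35 (standard error 0.22, 95% interval -0.85 to 0.14, adjusted p = 0.552 from limma-trend). Leaving out pre-AML 3 gave -0.13, and scaling to recovered reads gave -0.24. Leaving out pre-AML 1 gave -0.53 (unadjusted p = 0.0382, adjusted p = 0.327 from limma-trend). Of all the members, Pla2g4a was the only one that stayed lowest in pre-AML 3 after scaling to recovered reads, at 7.66 FPKM against 9.14 to 12.7 FPKM in the other 5 libraries, and 16.4% of all tested genes did so. The recovered reads on Pla2g4a were 789 to 971 in the controls and 870 to 929 in the pre-AML libraries.

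Of the cyclooxygenases, Ptgs1 was abundant and Ptgs2 was close to absent. Ptgs1 (Entrez gene 19224, chromosome 2 from 36230426 to 36252272 on the plus strand) encodes the constitutive cyclooxygenase of platelets. It had 192, 167 and 196 FPKM in control 1 to 3, and 191, 189 and 153 FPKM in pre-AML 1 to 3. Pre-AML 3 was the lowest and the other pre-AML libraries lay within the controls. With means of 185 ± 15.6 FPKM (SD, n = 3) and 178 ± 21.6 FPKM (SD, n = 3), the log2 fold change was -0.06 (standard error 0.15, 95% interval -0.40 to 0.27, adjusted p = 0.874 from limma-trend). On the linear scale this interval runs from 0.760-fold to 1.21-fold, so a larger change of Ptgs1 than that lay outside the interval. Ptgs2 (Entrez gene 19225, chromosome 1 from 150100031 to 150108227 on the plus strand), the cyclooxygenase that many cells induce on stimulation, was listed at 0 in control 1, control 3, pre-AML 1 and pre-AML 2. It had 0.0776 FPKM in control 2, from 5 recovered reads, and 0.00936 FPKM in pre-AML 3, from 1 read. With the limit that a count of 0 allows set at 3 reads, the upper bound was 0.0434 to 0.0558 FPKM of Ptgs2 in these 4 libraries, for counting error only. Ptgs2 was below the filter and was not tested in the main analysis. With no filter its log2 fold change was -0.031 (adjusted p = 0.742 from limma-trend).

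Tbxas1, the thromboxane synthase gene (Entrez gene 21391, chromosome 6 from 38875404 to 39084585 on the plus strand), had 73.5, 62.9 and 65.4 FPKM in the controls and 64.3, 65.9 and 52.2 FPKM in pre-AML 1 to 3. Again pre-AML 3 was the lowest and the other 5 libraries overlapped. The log2 fold change was -0.15 (standard error 0.15, 95% interval -0.48 to 0.19, adjusted p = 0.678 from limma-trend), moving to -0.04 when pre-AML 3 was left out. Within a library, where scaling cancels, the ratio of Tbxas1 to Ptgs1 was 0.384, 0.376 and 0.333 in the controls and 0.336, 0.348 and 0.341 in the pre-AML libraries. These ratios overlapped, and the 3 pre-AML ratios lay close together.

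Ptges3 (Entrez gene 56351, chromosome 10 from 128058954 to 128077272 on the plus strand) encodes p23, a cochaperone of HSP90 that also has prostaglandin E synthase activity. Its level was 1.61, 0.994 and 0.986 FPKM in the controls and 1.63, 1.20 and 1.43 FPKM in the pre-AML libraries, on 26 to 74 recovered reads. Control 1 and pre-AML 1 were equally high and the groups overlapped. The log2 fold change was 0.15 (standard error 0.19, 95% interval -0.29 to 0.58, adjusted p = 0.758 from limma-trend).

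Alox12, the platelet-type lipoxygenase gene (Entrez gene 11684, chromosome 11 from 70241457 to 70255353 on the minus strand), had 1244, 1116 and 1289 FPKM in the controls and 1193, 1221 and 957 FPKM in the pre-AML libraries. It alone took 0.462% to 0.523% of the recovered reads of a library, between 59654 and 91239 reads. The control mean was 1216 ± 89.5 FPKM (SD, n = 3) and the pre-AML mean 1124 ± 145 FPKM (SD, n = 3), with pre-AML 3 the lowest and the others overlapping. The log2 fold change of Alox12 was -0.12 (standard error 0.14, 95% interval -0.45 to 0.21, adjusted p = 0.734 from limma-trend). The ratio of Alox12 to Ptgs1 was steady over the 6 libraries, at 6.50, 6.67 and 6.56 in the controls and 6.23, 6.45 and 6.26 in the pre-AML libraries. All 3 pre-AML ratios were lower than the controls, by means of 6.31 ± 0.118 (SD, n = 3) against 6.57 ± 0.0884 (SD, n = 3). This ratio was noticed among 5 computed and was not tested.

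The remaining members belong to a family of small membrane proteins that act on eicosanoids and glutathione. Alox5ap (Entrez gene 11690, chromosome 5 from 149264767 to 149288153 on the plus strand) encodes FLAP, which presents arachidonic acid to the lipoxygenase encoded by Alox5. Its control values were the tightest of all members, at 1316, 1290 and 1300 FPKM, with a coefficient of variation of 1.0%. Pre-AML 1 and pre-AML 2 had 1335 and 1312 FPKM and pre-AML 3 had 1020 FPKM, so the groups overlapped. The log2 fold change of Alox5ap was -0.10 (standard error 0.14, 95% interval -0.43 to 0.22, adjusted p = 0.781 from limma-trend). Its partner Alox5 was far lower, at 4.23, 1.64 and 2.05 FPKM in the controls and 0.842, 1.86 and 6.82 FPKM in the pre-AML libraries. Mgst3 (Entrez gene 66447, chromosome 1 from 167371966 to 167393841 on the minus strand), a microsomal glutathione transferase, had 10.3, 6.67 and 9.12 FPKM in the controls and 10.5, 11.2 and 8.91 FPKM in the pre-AML libraries. Control 2 was the lowest and the groups overlapped, with a log2 fold change of 0.22 (standard error 0.18, 95% interval -0.18 to 0.62, adjusted p = 0.614 from limma-trend). Without control 2 it was 0.059.

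Scaling decided the sign of the abundant members. With each library scaled to its recovered reads, Alox5ap had 1294, 1308 and 1292 FPKM in the controls and 1312, 1327 and 1339 FPKM in the pre-AML libraries. Ptgs1 had 188, 170 and 195 FPKM against 188, 192 and 201 FPKM on the same scale, and pre-AML 3 was then the highest library for both genes. The log2 fold changes turned from -0.10 to 0.031 for Alox5ap, from -0.06 to 0.07 for Ptgs1 and from -0.12 to 0.013 for Alox12, and that of Tbxas1 was -0.017. This scaling moved the median of all tested genes from -0.055 to 0.051. Relative to that median, Ptgs1 was at -0.0058 as deposited and 0.020 after scaling, Alox12 at -0.065 and -0.038, Alox5ap at -0.046 and -0.019, and Tbxas1 at -0.092 and -0.068. After scaling, 3 of the 8 members had all pre-AML libraries above all controls, namely Alox5ap, Mgst3 and Ltc4s, where 10.9% of all tested genes did. Ltc4s was among the 8 only through its level in pre-AML 3, so its place in this count was partly set by the filter on low values. All pre-AML libraries lay below all controls for 0 of the 8, against 9.77% of all tested genes. At an unadjusted p under 0.05 on this scale, 0 members were higher and 0 lower, against 5.71% and 5.83% of all tested genes. Over all genes such calls moved from 113 higher and 288 lower to 252 higher and 257 lower. As a share of recovered reads, the 9 genes together took 0.779% to 0.851% in the controls and 0.804% to 0.853% in the pre-AML libraries.

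**Figure D2:**
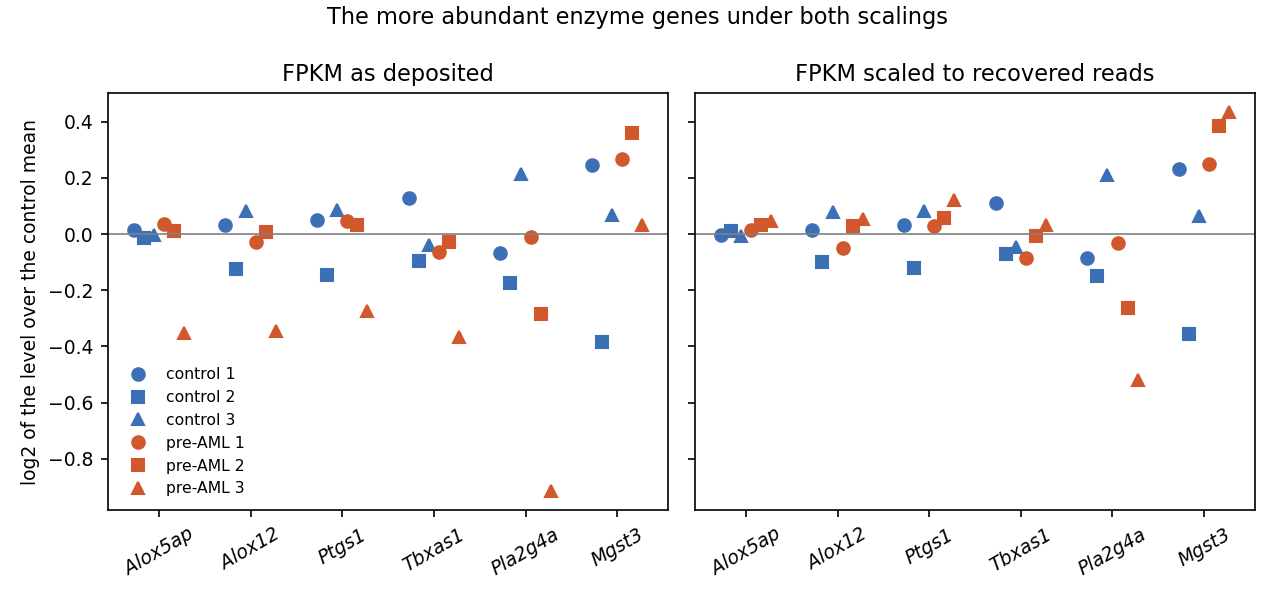
log2 of the level of 6 enzyme genes over their control mean (vertical axis) in each library, for FPKM as deposited (left) and scaled to recovered reads (right). On the left pre-AML 3 (orange triangle) lies below 0 for all but Mgst3, and on the right it lies within 0.2 of the control mean for Alox5ap, Alox12, Ptgs1 and Tbxas1 but not for Pla2g4a and Mgst3.

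**Figure D3:**
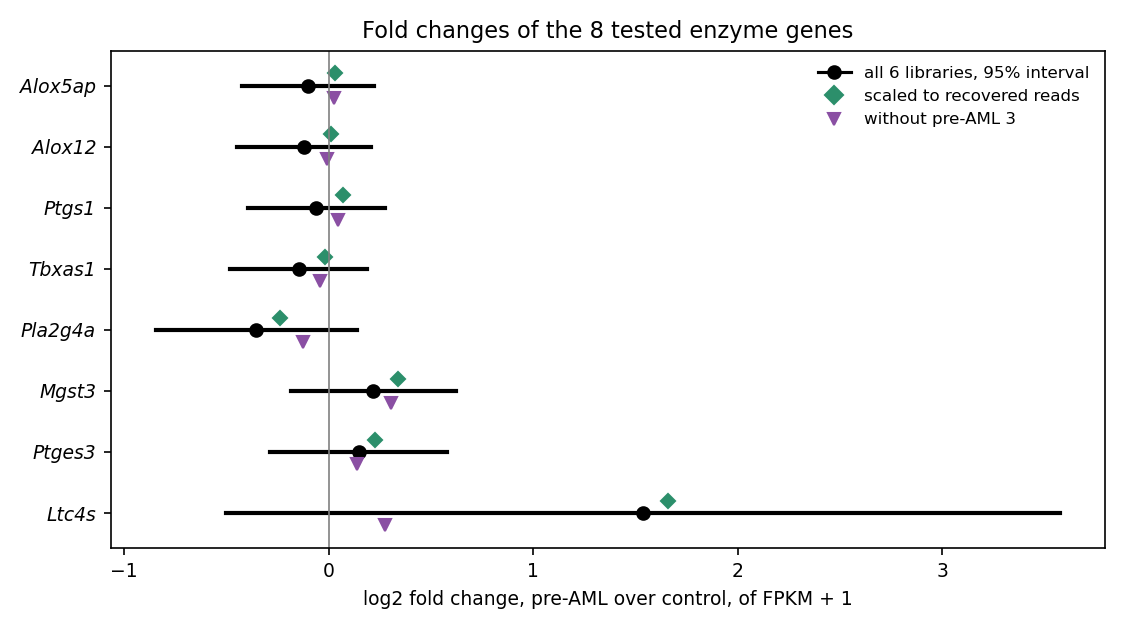
log2 fold change of FPKM + 1, pre-AML over control (horizontal axis), for the 8 tested enzyme genes, with the limma-trend estimate and 95% interval in black, the estimate after scaling to recovered reads as a green diamond and that without pre-AML 3 as a purple triangle. All 8 intervals include 0, and the interval of Ltc4s, from -0.50 to 3.57, is the widest.

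Ltc4s was the member that stood out, in a single library. It encodes leukotriene C synthase, which joins glutathione to the leukotriene precursor made by leukocytes (Entrez gene 17001, chromosome 11 from 50236461 to 50238616 on the minus strand). Its level was 0.0840, 0.491 and 0.497 FPKM in control 1 to 3, and 0.593, 0.654 and 21.3 FPKM in pre-AML 1 to 3. The recovered reads were 1, 7 and 6 in the controls and 8, 10 and 504 in the pre-AML libraries. All pre-AML values were above all controls, which 1 of the 8 tested members and 6.14% of all tested genes showed, but the exact Poisson intervals of the reads in pre-AML 1 and pre-AML 2 (3.45 to 15.8 and 4.80 to 18.4) overlapped those in control 2 and control 3 (2.81 to 14.4 and 2.20 to 13.1). A difference of these 2 libraries from the controls was thus not detectable at this depth. Pre-AML 3 was 59.6 times the control mean. The log2 fold change was 1.53 (standard error 0.89, 95% interval -0.50 to 3.57, adjusted p = 0.536 from limma-trend), on the log2(FPKM + 1) scale, which understates changes of low genes, and 0.27 without pre-AML 3. Without pre-AML 1 it was 2.18 (unadjusted p = 0.0362, adjusted p = 0.326 from limma-trend), and without pre-AML 2 it was 2.15. Ltc4s passed the filter on low values only through pre-AML 3.

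Some other leukotriene and lipoxygenase genes also had their highest level by far in pre-AML 3. Pre-AML 3 was the highest of the 6 libraries for 6 of the 10 further genes of this role in the table, namely Alox5, Alox15, Lta4h, Mgst1, Dpep2 and Cyp4f18, and not for Alox12e, Mgst2, Ggt5 and Dpep1. Over all 8 roles of the wider list this held for 29 of 78 genes, and over all 14975 listed genes for 35.9%. Alox15, the gene of a lipoxygenase known from macrophages and eosinophils, had 86.1 FPKM in pre-AML 3 from 4932 recovered reads, and at most 2 reads in any other library. Dpep2, which encodes a dipeptidase that trims cysteinyl leukotrienes, had 6.44 FPKM in pre-AML 3 and at most 0.0926 FPKM elsewhere. Cyp4f18, which encodes an oxidase of leukotriene B, was at 4.69 FPKM against at most 0.357 FPKM. Among the prostaglandin synthase genes, Ptgis, for prostacyclin synthase, had 4.69 FPKM in pre-AML 3 on 281 reads and at most 0.284 FPKM elsewhere, while the other genes of that role were at 0.369 FPKM or less in every library. Alox15 and Dpep2 passed the filter on low values only through pre-AML 3, and their log2 fold changes of 2.10 and 0.92 were -0.046 and -0.038 without it. Dpep2, Ptgis and Cyp4f18 were picked here after their values were seen.

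Most macrophage and B cell markers had, like Ltc4s, their highest level in pre-AML 3, but Ms4a7 was highest in control 3 and Cr2 in pre-AML 2. In pre-AML 3, Adgre1, the gene of the macrophage antigen F4/80, was at 24.6 FPKM and C1qb, a complement gene, at 128 FPKM, with controls at no more than 0.0263 and 0.457 FPKM. The 9 B cell markers were all above the controls in pre-AML 3, with a sum of 63.8 FPKM against 0.158 to 0.903 FPKM in the controls, and Cd79b, of the B cell receptor, was at 23.2 FPKM. In pre-AML 2 this sum was 4.95 FPKM while Ltc4s was at 0.654 FPKM, and in pre-AML 1 it was 0.209 FPKM with Ltc4s at 0.593 FPKM. Of 12 T and NK cell markers 11 were above the controls in pre-AML 3, and their sum without Nkg7 was 9.49 FPKM against 0.205 to 0.510 FPKM. The rest of the pre-AML libraries stood above the controls too, with 9 of 12 above the controls and a sum of 5.87 FPKM in pre-AML 1, and 7 of 12 and 1.98 FPKM in pre-AML 2. Of 13 markers of mast cells, basophils and eosinophils, which are also known to express Ltc4s, 7 were in the expression table. Mcpt4, Mcpt8, Tpsb2, Ms4a2, Prg2 and Epx were not listed there and could not be read. In FPKM as deposited, a scale on which pre-AML 3 appears lower, 0 of the 7 were above all controls in pre-AML 3. The sum of these markers without Gata2, which megakaryocytes share, was 2.71 FPKM against 2.34 to 3.65 FPKM in the controls. Of the neutrophil markers 2 of 10 were above all controls in pre-AML 3 and 5 were at 0 there, with S100a8 at 0.124 FPKM against 1.09 to 1.60 FPKM. Csf3r, of the same list, went the other way, at 1.14 FPKM in pre-AML 3 and at most 0.0233 FPKM in the controls. The part of these cells in the level of Ltc4s was not tested. Erythroid markers were above all controls for 3 of 7 in pre-AML 3, with Hba-a1 at 1721 FPKM against 1200 to 1506 FPKM.

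**Figure D4:**
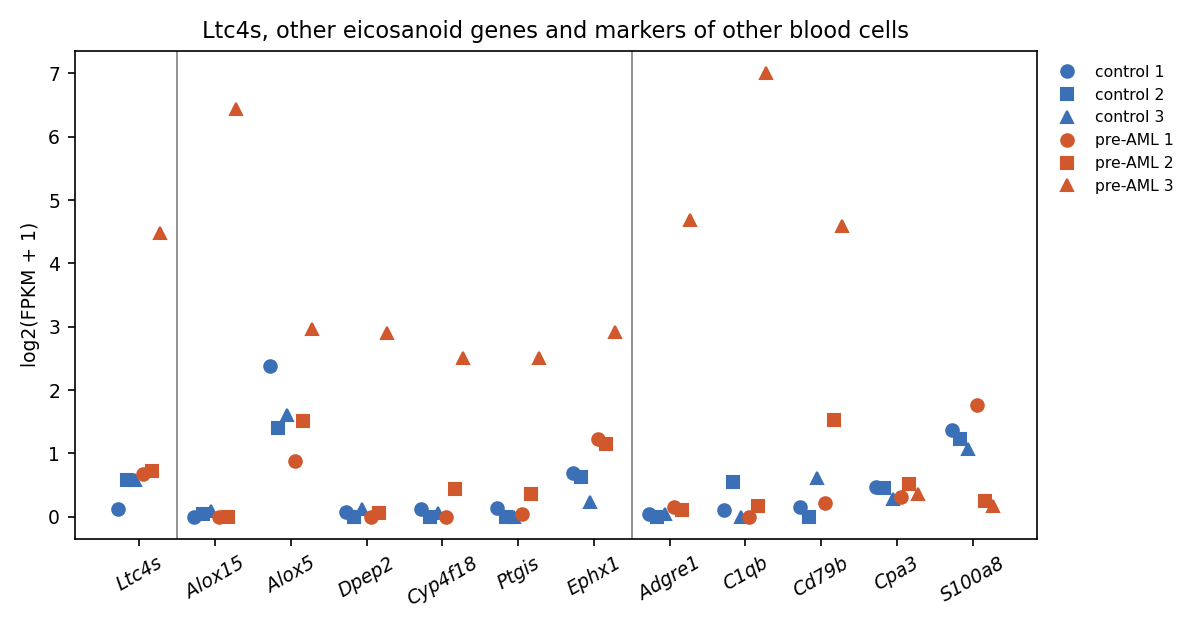
log2(FPKM + 1) in the 6 libraries for Ltc4s (left), 6 other eicosanoid genes (middle) and markers of macrophages (Adgre1, C1qb), B cells (Cd79b), mast cells (Cpa3) and neutrophils (S100a8) (right). Pre-AML 3 (orange triangle) is the highest library for Ltc4s, the eicosanoid genes, Adgre1, C1qb and Cd79b, but not for Cpa3 and S100a8. Some of these genes were picked after their values were seen, and Csf3r, a neutrophil marker not shown, was highest in pre-AML 3.

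The rest of eicosanoid metabolism was read from a list of 92 further genes, of which 78 were in the table and 35 were tested. At an adjusted p under 0.05, 0 of the 35 were called by limma-trend and 0 by limma-voom. At an unadjusted p under 0.05, 1 was higher and 2 were lower, beside 2.56% and 6.53% of all tested genes. Of the 35, 3 passed the filter on low values only through pre-AML 3, namely Alox15, Dpep2 and Ephx1, and the 1 higher gene was Ephx1. The median log2 fold change of the 35 was -0.08.

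Among the genes that return arachidonic acid to phospholipids, Lpcat3, which encodes a lysophospholipid acyltransferase, had 30.4, 23.9 and 17.5 FPKM in the controls and 14.7, 16.3 and 11.5 FPKM in the pre-AML libraries. All 3 pre-AML values were below all controls, as for 12.8% of all tested genes. Its log2 fold change was -0.70 (unadjusted p = 0.0112, adjusted p = 0.522 from limma-trend), with -0.57 when pre-AML 3 was left out and -0.58 after scaling to recovered reads. The most abundant gene of this role, Mboat7, had a log2 fold change of -0.05.

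Hpgd, the gene of the dehydrogenase that inactivates prostaglandins, had 3.34, 3.29 and 2.45 FPKM in the controls and 1.70, 2.36 and 1.27 FPKM in the pre-AML libraries. The groups did not overlap, with pre-AML lower, as for 12.8% of all tested genes, and the gap was narrow. The log2 fold change was -0.55 (unadjusted p = 0.0203, adjusted p = 0.522 from limma-trend). It was -0.41 when pre-AML 3 was left out and -0.47 after scaling to recovered reads. Ephx1, which encodes an epoxide hydrolase, had 0.612, 0.547 and 0.172 FPKM in the controls and 1.35, 1.22 and 6.57 FPKM in the pre-AML libraries, with 1.25 as its log2 fold change (limma-trend adjusted p = 0.522). It was highest in pre-AML 3, through which alone it was tested, and its log2 fold change was 0.68 without that library. Of the transporters, Abcc4 led its role in level with 4.98 FPKM over the 6 libraries and had a log2 fold change of -0.08.

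Other roles showed no gene at an unadjusted p under 0.05. Among the lipases, Pla2g12a was the most abundant with a control mean of 97.4 ± 10.8 FPKM (SD, n = 3) and a pre-AML mean of 94.9 ± 13.6 FPKM (SD, n = 3). Gpx4, which reduces lipid hydroperoxides, averaged 840.5 FPKM in the controls, against 863 FPKM for pre-AML. Mapk14, the gene of the p38 kinase, led the kinases and partners of the release step with 31.8 FPKM over the 6 libraries and had a log2 fold change of -0.12. Of the 7 other prostaglandin synthase genes in the table, 0 reached a mean of 1 FPKM, with Ptgis the highest through pre-AML 3. The receptor list was led by Cysltr2, a receptor for cysteinyl leukotrienes, with means of 56.9 FPKM for the controls against 49.8 FPKM for pre-AML. Tbxa2r, the thromboxane receptor gene, had 0.526 to 0.704 FPKM in the controls and 0.627 to 1.23 FPKM in the pre-AML libraries and was below the filter.

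**Figure D5:**
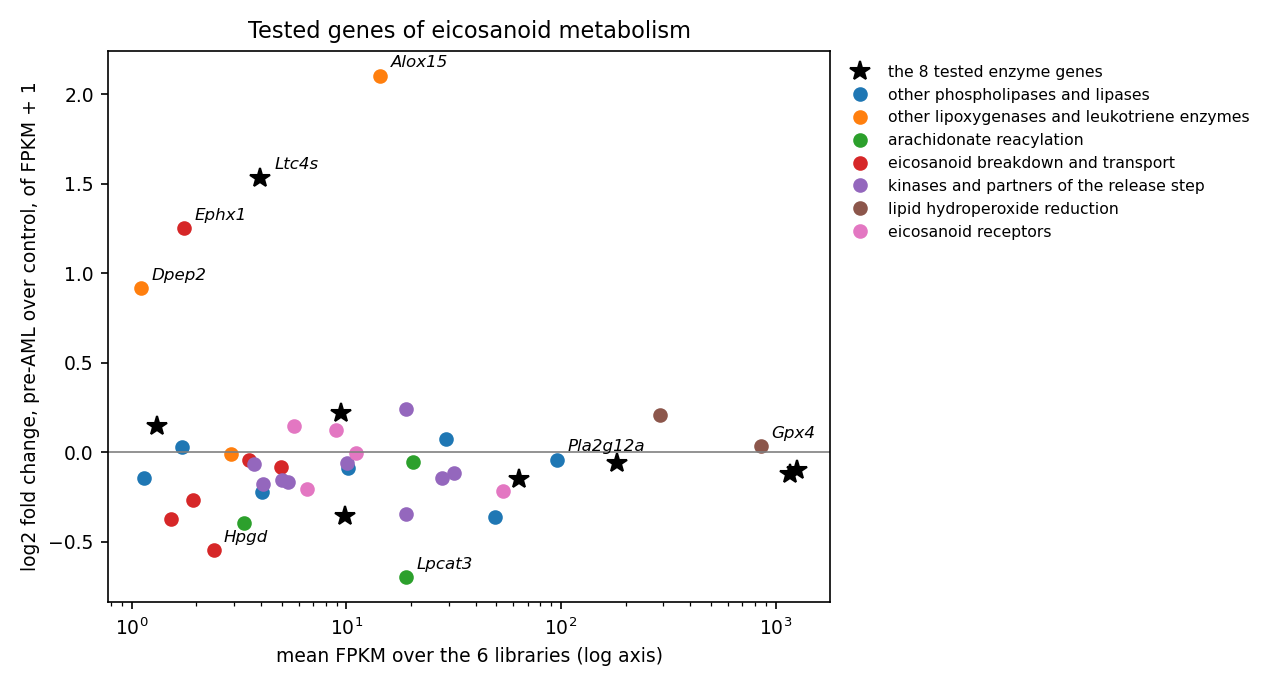
log2 fold change of FPKM + 1, pre-AML over control (vertical axis), against the mean FPKM over the 6 libraries (horizontal log axis), for the 8 tested enzyme genes (stars) and 35 further genes of eicosanoid metabolism coloured by role. Most points lie near 0, and Alox15, Ltc4s, Ephx1 and Dpep2 lie highest, at 2.10, 1.53, 1.25 and 0.92.

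The abundant members kept close company across the libraries. Likeness was measured as the root mean square difference between the deviations of log2(FPKM + 1) from the own mean over the 6 libraries, which share library scaling. For Ptgs1 the nearest of the tested genes were Cdk6, Rnf10 and Pafah2, at 0.021, 0.031 and 0.034, and Alox12 came next at rank 4 with 0.035. For Alox12 the nearest were Chp1, Rnf10 and Abhd4, at 0.019, 0.024 and 0.030, with Ptgs1 at rank 8. From Ptgs1, Alox5ap was at rank 94 and Tbxas1 at rank 139, while Pla2g4a, Mgst3 and Ptges3 were at ranks 2316, 1749 and 2264 and Ltc4s at rank 4380.

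Reads of a gene and of a partner on the opposite strand cannot be told apart without strand. In GENCODE release M21, exons of Alox5ap, Ltc4s, Ptgs1 and Tbxas1 share 189, 268, 148 and 144 bases with the exons of 1 unnamed gene each on the opposite strand, none of which is listed in the expression table.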

How the data were processed

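RNA-seq of platelets from 3 control and 3 pre-AML libraries was used. Per the labels, alignment to mm10 was by STAR and differential expression by DESeq2. The deposited values are FPKM, 1 per gene and library, with replicates kept separate; the counting program and the annotation are not given in the sources used here.

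The members and gene lists were chosen with earlier results of these data known. Named genes were the 9 members, and from the wider list the most abundant gene of each role and those with unadjusted p under 0.05. Also named were the 3 genes most like Ptgs1 and Alox12, and the most abundant marker of each cell type. Others are stated as picked later (Alox5, Tbxa2r, Adgre1, C1qb, Cpa3, Tyrobp, Ms4a7, Cr2 and Csf3r too). Genes averaging 1 FPKM or more were tested on log2(FPKM + 1) with limma-trend in limma 3.58.1 under R 4.3.3, with no covariate, at a Benjamini-Hochberg adjusted threshold of 0.05. Reads were recovered with exon lengths of GENCODE M21 on GRCm38, found for 14912 genes, and 86.3% of values were within 0.05 of a whole read. They are estimates and were used for depth, Poisson intervals, which cover counting error only, and alternatives. Python 3.11.15, pandas 2.3.3 and scipy 1.17.1 were used for the rest. The alternatives were no filter, a pseudocount of 0.1, scaling to recovered reads, quantile normalization, limma-voom, removal of length and GC trends by loess, the replicate block and leaving out each library. DESeq2 and edgeR were not run, since the table holds no counts.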

Additional observations from a re-analysis of the deposited data

How the results depend on the processing

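Over 13 alternatives, the members past the threshold numbered 0 in each, and 97 of 104 log2 fold changes of members kept their direction and their side of the threshold. Scaled to recovered reads, the sign turned for Ptgs1 (0.071), Alox12 (0.013) and Alox5ap (0.031), with quantile normalization for Ptgs1 (0.035) and Alox12 (0.015), and without pre-AML replicate 3 for Ptgs1 (0.043) and Alox5ap (0.024). Over all alternatives, Pla2g4a ranged from -0.53 to -0.13 and Ltc4s from 0.27 to 3.16, with adjusted p of 0.327 to 0.855 and 0.326 to 0.778 from limma.

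The 1 gene of all tested genes past the threshold became 0 with no filter, with scaling to recovered reads and with limma-voom, and 0 to 2 with 1 library left out; the causes were not tested. In the wider list 0 passed in every alternative. With the replicate number as a block, 1 gene and 0 members passed, and Ltc4s had an unadjusted p of 0.0447 (adjusted p = 0.569 from limma-trend). Same-numbered libraries correlated at -0.043, -0.12 and -0.17 in their deviations, and 0 of 6 libraries correlated best with their own number. With 3 libraries a group the deviations from the group mean depend on each other, and pre-AML 3 stood apart. These values therefore cannot show whether same-numbered libraries were paired or shared a batch. With 3 libraries a group, and 1 to 10 reads on Ltc4s outside pre-AML 3, small changes of the low members cannot be detected.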
